A study of Saccharomyces cerevisiae with 18 samples.

Results

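The 42 genes described here code for the proteins that turn messenger RNA into protein beside the ribosome itself: 21 cytosolic aminoacyl-tRNA synthetases, 9 elongation factor genes, 10 genes of initiation including PAB1 (YER165W), and 2 termination factor genes. They were chosen by function and by systematic name, not by their values, and they are 42 of the 6606 open reading frames (ORFs) in the deposited table. A filter on low counts kept 2856 ORFs for testing, among them 39 of the 42. EFT1 (YOR133W), EFT2 (YDR385W) and SUI2 (YJR007W) were too low to be tested and are given by their counts.

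A synthetase couples 1 amino acid to its matching tRNA. Initiation factors bring the cap of the messenger, the initiator tRNA and the small ribosomal subunit together. Elongation factors then deliver charged tRNAs and move the ribosome along, and release factors free the finished chain at a stop codon. In budding yeast growing on glucose these factors are made in large amounts, and several of them are encoded by pairs of almost identical genes.

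By its title, the study sought to separate epigenetic from genetic effects of where a gene sits in the genome. Poly-A RNA was sequenced from Saccharomyces cerevisiae grown in log phase at 30 °C on YPD, a rich glucose medium, without the drug G418. Wild-type had 6 libraries, and each of 4 heterozygous diploid strains had 3: the heterozygotes at YAL067C (SEO1, a putative permease), YAL031C (GIP4, a partner of the phosphatase Glc7), YAL022C (FUN26, a nucleoside transporter) and YAL008W (FUN14, a mitochondrial membrane protein), all chromosome I genes. The labels name the heterozygous gene and no other allele. Nothing in them says that replicates were separate cultures, so a p-value here reflects how far libraries of a group spread, which may be technical. Every library carries the background label BY4741, a haploid a-mating-type strain, although the series text calls wild-type diploid and the wild-type columns carry the name BY4743.

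Libraries were shallow, with total counts of 66764.5 to 116519.5 in wild-type and 52293.5 to 132618 in the heterozygotes. Replicates 1 and 2 of wild-type agreed within sampling noise (chi-square per ORF 0.972 over 2513 ORFs, against 2.08 to 9.99 in the other 14 wild-type pairs) and were counted as 1 sample, so wild-type has n = 5. The libraries labelled wild-type held 6 a-specific genes at a summed 1222.5 ± 248.5 counts per 1e+06 counts (CPM, SD, n = 5), against 83.5 ± 50.5 in the heterozygotes (n = 12). For 5 haploid-specific genes the sums were 1169 ± 258 and 98.7 ± 41.1 CPM, and for 4 alpha-specific genes 82.0 ± 59.5 and 69.4 ± 36.1 CPM. A difference between wild-type and the heterozygotes can therefore not be told apart from a difference in mating type or ploidy. Wild-type replicate 3, SEO1 replicates 2 and 3, FUN26 replicate 3 and all 3 FUN14 libraries had positive scores on the first principal component. These ran from 13.6 to 38.7, and the scores of the other libraries were negative, from -32.3 to -3.40.

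The values cover only the last 200 bases of each ORF, which decides what can be said of the paired genes. TEF1 (YPR080W) and TEF2 (YBR118W) both encode eEF1A, which carries charged tRNAs to the ribosome. Their coding sequences of 1377 bases differ at 2 positions, and none of these falls in the counted window, which is therefore printed once. EFT1 and EFT2 both encode eEF2, which moves the ribosome by 1 codon, and TIF1 (YKR059W) and TIF2 (YJL138C) both encode the helicase eIF4A. The coding sequences of EFT1 and EFT2 span 2529 bases with 4 differences, 1 of them in the window. Those of TIF1 and TIF2 span 1188 bases with 6 differences, 2 of them in the window. The windows are given 5′ to 3′ on the coding strand, as RefSeq has them in assembly R64, with the bases that differ within a pair in capitals.
TEF1 and TEF2: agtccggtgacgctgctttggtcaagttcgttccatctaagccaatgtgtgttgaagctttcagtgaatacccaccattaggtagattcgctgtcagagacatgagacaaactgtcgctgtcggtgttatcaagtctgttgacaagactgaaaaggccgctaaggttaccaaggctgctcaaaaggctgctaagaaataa
EFT1: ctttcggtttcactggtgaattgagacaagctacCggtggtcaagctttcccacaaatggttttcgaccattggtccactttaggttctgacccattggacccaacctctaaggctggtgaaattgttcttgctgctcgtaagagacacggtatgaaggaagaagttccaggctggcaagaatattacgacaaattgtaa
EFT2: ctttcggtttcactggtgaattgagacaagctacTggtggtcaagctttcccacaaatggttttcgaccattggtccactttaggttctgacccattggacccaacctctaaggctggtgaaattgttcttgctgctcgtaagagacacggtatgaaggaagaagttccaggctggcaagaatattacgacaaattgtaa
TIF1: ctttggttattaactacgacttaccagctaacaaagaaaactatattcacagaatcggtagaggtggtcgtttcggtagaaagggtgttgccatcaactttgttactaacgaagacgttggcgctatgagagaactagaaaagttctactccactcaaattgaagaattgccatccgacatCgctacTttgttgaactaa
TIF2: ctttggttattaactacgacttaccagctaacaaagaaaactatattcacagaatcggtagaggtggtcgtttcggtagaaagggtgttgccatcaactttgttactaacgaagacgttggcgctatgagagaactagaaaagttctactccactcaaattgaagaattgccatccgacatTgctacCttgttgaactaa
Counted from 1 at the 5′ end of the window, the substitution from EFT1 to EFT2 is C35T, and those from TIF1 to TIF2 are C182T and T188C. How reads that match both copies were shared out, or whether they were kept, is not given in the sources used here. Both the split within each pair and the level of each copy are therefore uncertain.

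TEF1 had deposited counts of 8, 7, 13, 8, 8.5 and 8 in wild-type replicates 1 to 6, 9, 8 and 11 in the SEO1 heterozygote, 9, 7 and 6 in the GIP4 heterozygote, 5.5, 9.5 and 9 in the FUN26 heterozygote and 10.5, 10 and 11 in the FUN14 heterozygote. TEF2 had 4, 6, 10, 11, 9.5 and 5 in wild-type, and then, in the same order of strains, 7, 10.5 and 11.5, 6, 4 and 15, 15, 12 and 17.5 and 13.5, 10.5 and 18. Although the windows are identical, the 2 counts differed in every library, TEF2 was above TEF1 in 11 of 18 libraries, and the summed ratio of TEF2 to TEF1 was 1.18. EFT1 had 2, 2, 2, 2, 1 and 2 in wild-type, and 1, 3 and 3, 3, 2 and 3, 7, 3 and 1 and 1, 2 and 1 in the 4 strains. EFT2 had 1, 3, 1, 2, 1 and 2 in wild-type, and 3, 2 and 2, 1, 5 and 1, 9, 2 and 7 and 3, 2 and 1. Replicates 1 and 3 of the FUN26 heterozygote held the 2 highest EFT2 counts. Neither eEF2 gene passed 9 counts in any library, and as both missed the count filter no test was made of them.

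The eIF4A pair was unequal throughout. TIF1 had 7.5, 5, 2, 9.5, 4 and 3 counts in wild-type, and 5, 12 and 2, 3, 4 and 1, 8.5, 4 and 8 and 8, 5 and 11 in the 4 strains, again in that order. TIF2 had 40.5, 24.5, 41, 37, 22 and 21 in wild-type, and 32, 35 and 60, 22, 26 and 39, 43, 43 and 53 and 62, 44 and 56 in those strains. TIF2 was above TIF1 in all 18 libraries, by 2.92 to 39 times, and the 2 ranges did not overlap (TIF1 1 to 12, TIF2 21 to 62). A further pair, TEF4 (YKL081W) and CAM1 (YPL048W), encodes the gamma subunit of eEF1B, which recharges eEF1A with GTP. TEF4 was above CAM1 in all 18 libraries, by 1.17 to 5.1 times.

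Levels spread widely within every class, as the plot of deposited counts shows. Since each window has the same length, counts can be ranked between genes, apart from the near-identical pairs, whose levels depend on how shared reads were handled. No value in the table exceeds 201, and strong genes are compressed towards that ceiling. All 42 genes had a count above 0 in all 18 libraries. The mean count per library was at most 20 for 25 of them and over 50 for 9.

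**Figure D1:**
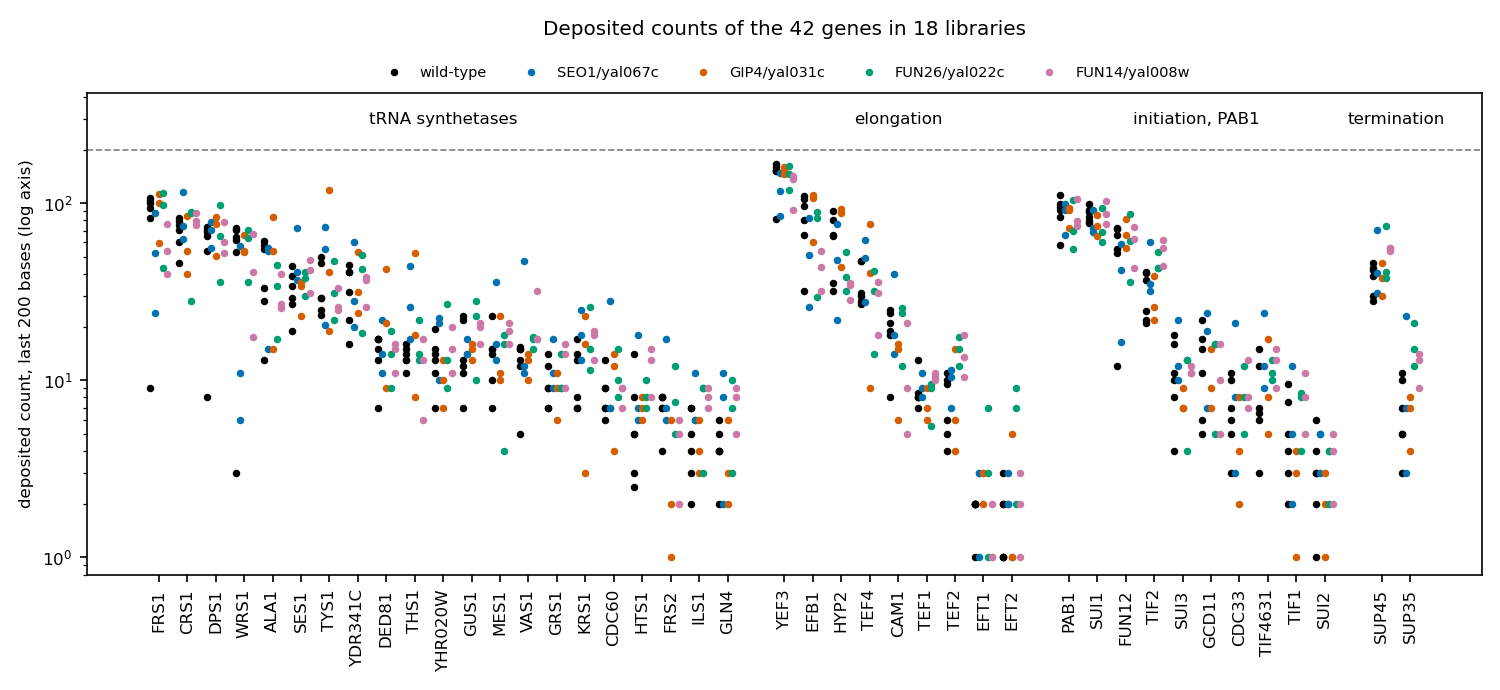
Deposited count over the last 200 bases of each ORF (log axis) for the 42 genes, grouped by class and ordered within a class by mean, with 1 point per library coloured by group (18 libraries). The dashed line marks the table's highest value, 201; YEF3 comes nearest to it at 166, while EFT1, EFT2 and SUI2 lie lowest.

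Among synthetases, FRS1 (YLR060W), 1 of the 2 kinds of subunit of the phenylalanine enzyme, was highest in wild-type, at 1043, 147, 1044, 1025 and 1346 CPM (replicates 1 and 2 as 1 sample, then replicates 3 to 6; mean 921 ± 453, SD, n = 5). GLN4 (YOR168W), the glutamine enzyme, was lowest at 60.2, 65.3, 44.4, 19.9 and 65.7 CPM (51.1 ± 19.5). In the heterozygotes GLN4 ran from 26.6 to 152 CPM, with a median of 72.1, in the 12 heterozygote libraries. FRS1 was far below its group in wild-type replicate 3 alone. With that library FRS1 overlapped the next synthetase, CRS1 (YNL247W) for cysteine, at 812, 1159.9, 833, 597 and 755 CPM, and without it the 2 did not overlap. The whole GLN4 window lies across an ORF on the opposite strand, YOR169C, and the same holds for ILS1 (YBL076C), the isoleucine enzyme, with YBL077W, so without strand the reads of either ORF cannot be told apart.

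YEF3 (YLR249W), the ATPase eEF3 that fungi need at every elongation cycle, had the highest CPM of all 42 genes, at 1574, 1339.5, 1844, 1512 and 2528 in wild-type. It ran from 881 to 2609 CPM, with a median of 1532, in the 12 heterozygote libraries. Its counts reached 40.6% to 82.6% of the ceiling in wild-type. Near the ceiling, count changes may be understated and CPM may also depend on depth, which was not tested for this gene. Wild-type replicates 5 and 6 had 152 and 154 counts but 1512 and 2528 CPM, at total counts of 116519.5 and 73741.5. Counts also differed at similar depth, with 81.5 in wild-type replicate 3 and 147 in GIP4 replicate 3, at total counts of 66764.5 and 66145. EFT2 had the lowest CPM of the elongation genes in wild-type, at 20.1, 16.3, 22.2, 9.95 and 32.8. As it belongs to a near-identical pair, its low values may not reflect its level. Among initiation genes, PAB1, which binds the poly(A) tail, led at 1023, 947, 1099.8, 945 and 1379 CPM, and SUI2, the alpha subunit of eIF2, was lowest at 30.1, 98, 33.3, 29.9 and 16.4 CPM. In the heterozygotes PAB1 ran from 690.0 to 1253 CPM, with a median of 1062, in the 12 heterozygote libraries, and SUI2 from 17.4 to 79.9 CPM, with a median of 38.1, in the 12 heterozygote libraries. PAB1 and SUI1 (YNL244C), the start-codon factor eIF1, overlapped in wild-type (1079 ± 179 and 1069 ± 201 CPM). Of the release factors, SUP45 (YBR143C; eRF1, which reads the stop codon) stood above SUP35 (YDR172W; its GTPase partner eRF3) in every wild-type library, with means of 450.4 ± 26 and 87.3 ± 53.7 CPM.

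The 4 heterozygotes as a whole were first set against wild-type. None of the 39 tested genes differed at an adjusted p under 0.05 by edgeR's quasi-likelihood test (smallest adjusted p 0.705, KRS1), where 0.385% of all 2856 tested ORFs did. At an unadjusted p under 0.05, edgeR picked 2 of the 39, KRS1 and TIF4631 (YGR162W), or 5.13%, against 6.48% of all tested ORFs. DESeq2 called 0 of the 39 after adjustment (0.42% of all) and 1, KRS1, before it (5.71% of all). Estimates ran from -0.36 to 0.72 on the log2 scale, and for 26 of the 39 the 95% interval lay within 1 of 0 on that scale, that is within a 2-fold change either way.

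**Figure D2:**
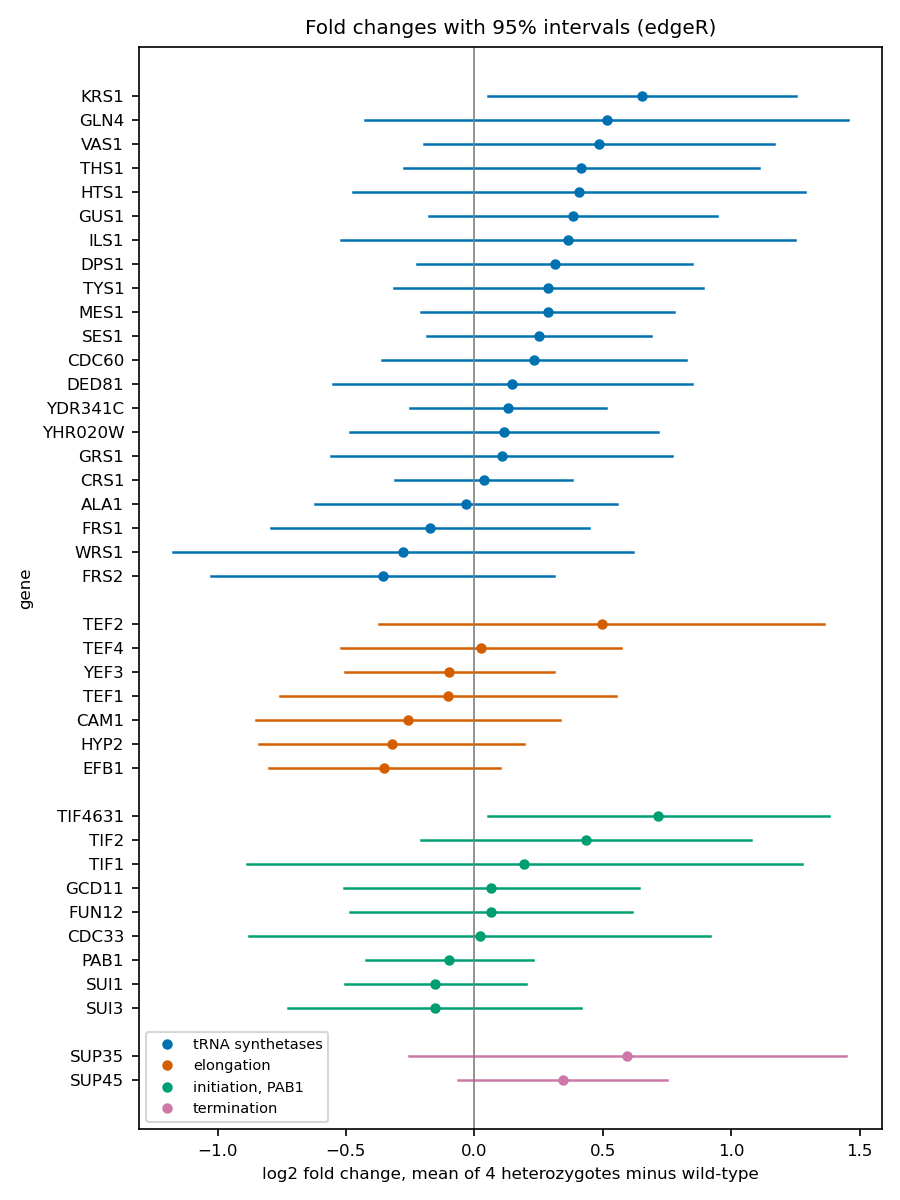
Log2 fold change of the mean of the 4 heterozygotes against wild-type for the 39 tested genes, ordered by size within each class, with edgeR's 95% intervals as bars (12 heterozygote and 5 wild-type libraries). Only the intervals of KRS1 and TIF4631 lie wholly above 0, and none passed adjustment over all ORFs.

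Synthetases had a median log2 fold change of 0.25, with 17 of 21 estimates above 0, where the median over all tested ORFs was -0.05 and 44.2% were above 0. The largest came from KRS1 (YDR037W), the lysine enzyme. KRS1 stood at 160.4, 114, 77.8, 129 and 131 CPM in wild-type and from 52.2 to 261 CPM, with a median of 199, in the 12 heterozygote libraries. Only the lowest heterozygote library, a GIP4 one at 52.2 CPM, lay below all wild-type ones, and the groups overlapped. The log2 fold change was 0.65 ± 0.29 (SE; 95% interval 0.05 to 1.25), with an adjusted p of 0.705 by edgeR. VAS1 (YGR094W), the valine enzyme, was at 140.4, 261, 167, 119 and 82.1 CPM in wild-type and from 115 to 414 CPM, with a median of 177, in the 12 heterozygote libraries; its log2 fold change was 0.49 ± 0.33 (SE; 95% interval -0.20 to 1.17). GUS1 (YGL245W), the glutamate enzyme, was at 221, 212, 122, 119 and 115 CPM in wild-type and from 106 to 313 CPM, with a median of 219, in the 12 heterozygote libraries, a log2 fold change of 0.38 ± 0.27 (SE; 95% interval -0.18 to 0.94). Both overlapped between groups (edgeR adjusted p 0.741 for VAS1 and 0.747 for GUS1). Without wild-type replicate 3 the VAS1 estimate was 0.74. The direction of GUS1 turned under 2 alternatives, to -0.07 against wild-type replicates 1 to 3 alone and to -0.10 with a replicate block. The 4 synthetases with estimates below 0 were ALA1 (YOR335C), FRS1, WRS1 (YOL097C) and FRS2 (YFL022C), for alanine, phenylalanine, tryptophan and phenylalanine again. The other synthetases above 0 besides these were led by GLN4 at 0.51 and ended with CRS1 at 0.04; they include HTS1 (YPR033C) for histidine, DPS1 (YLL018C) for aspartate, SES1 (YDR023W) for serine, CDC60 (YPL160W) for leucine, DED81 (YHR019C) for asparagine and GRS1 (YBR121C) for glycine, and the interval of each spanned 0. Without wild-type replicate 3, the class median was 0.36.

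Elongation factors had a median of -0.10, with 2 of 7 estimates above 0. EFB1 (YAL003W) encodes the alpha subunit of eEF1B, the exchange factor of eEF1A. EFB1 stood at 1083, 523, 733, 955 and 1313 CPM in wild-type and from 387 to 1232 CPM, with a median of 730.3, in the 12 heterozygote libraries. Its log2 fold change was -0.35 ± 0.22 (SE; 95% interval -0.80 to 0.10) and its edgeR adjusted p 0.734, with wide overlap. HYP2 (YEL034W), which encodes eIF5A, a factor that helps the ribosome past difficult peptide bonds, was at 852, 588, 356, 657 and 1083 CPM in wild-type and from 352 to 1022 CPM, with a median of 481, in the 12 heterozygote libraries. The log2 fold change of HYP2 was -0.32 ± 0.25 (SE; 95% interval -0.84 to 0.19), and its window lies across YEL034C-A on the other strand. Both estimates leaned on wild-type replicate 6, the highest wild-type sample for either gene: without it EFB1 stood at -0.20 and HYP2 at -0.13, and without replicate 4 HYP2 stood at -0.49. TEF2 stood at 50.1, 163, 122, 99.5 and 82.1 CPM in wild-type and from 46.5 to 391 CPM, with a median of 148, in the 12 heterozygote libraries. That gave a log2 fold change of 0.49 ± 0.41 (SE), while TEF1, with the same window, had one of -0.10 ± 0.31 (SE), and neither had an edgeR adjusted p under 0.05 (0.789 and 0.959). Without GIP4 replicate 3 the TEF2 estimate was 0.24.

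Initiation genes had a median of 0.06, with 6 of 9 above 0. TIF4631 encodes eIF4G, the scaffold that joins the cap-binding factor to the helicase. TIF4631 stood at 140.4, 98, 77.8, 59.7 and 49.2 CPM in wild-type and from 58.1 to 239 CPM, with a median of 143, in the 12 heterozygote libraries. Of the 5 wild-type samples, 4 lay below 10 of the 12 heterozygote libraries, and 1 near the heterozygote median. The log2 fold change was 0.72 ± 0.32 (SE; 95% interval 0.05 to 1.38), with an edgeR adjusted p of 0.718. TIF2 stood at 321, 669.8, 411, 219 and 345 CPM in wild-type and from 195 to 1152 CPM, with a median of 508, in the 12 heterozygote libraries, a log2 fold change of 0.44 ± 0.31 (SE; 95% interval -0.21 to 1.08). SUI1 stood at 942, 1290.5, 1011, 836 and 1264 CPM in wild-type and from 680.2 to 1305 CPM, with a median of 995, in the 12 heterozygote libraries, a log2 fold change of -0.15 ± 0.17 (SE; 95% interval -0.50 to 0.20). The groups overlapped for both, and the narrow SUI1 interval keeps its difference under 2-fold. Without wild-type replicate 3, the highest wild-type sample for both, the estimates were 0.71 for TIF2 and -0.06 for SUI1, and without FUN26 replicate 3 that of TIF2 was 0.29. CDC33 (YOL139C), the cap-binding eIF4E, GCD11 (YER025W), the gamma subunit of eIF2, FUN12 (YAL035W), the subunit-joining GTPase eIF5B, and SUI3 (YPL237W), the beta subunit of eIF2, had estimates of 0.02, 0.07, 0.06 and -0.16.

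Both release factors had estimates above 0, with a median of 0.47. SUP45 stood at 441, 457, 433, 428 and 492 CPM in wild-type, a narrow range, and from 349 to 826 CPM, with a median of 567, in the 12 heterozygote libraries. The log2 fold change was 0.34 ± 0.20 (SE; 95% interval -0.07 to 0.75). SUP35 stood at 80.2, 179.7, 77.8, 49.8 and 49.2 CPM in wild-type and from 35.5 to 326 CPM, with a median of 137, in the 12 heterozygote libraries, and its log2 fold change was 0.59 ± 0.41 (SE; 95% interval -0.26 to 1.45). SUP45 in wild-type lay inside the heterozygote range, SUP35 overlapped too, and the edgeR adjusted p was 0.726 for SUP45 and 0.741 for SUP35. Without wild-type replicate 3, the highest wild-type sample for SUP35, its log2 fold change was 0.99 with an adjusted p of 0.343.

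**Figure D3:**
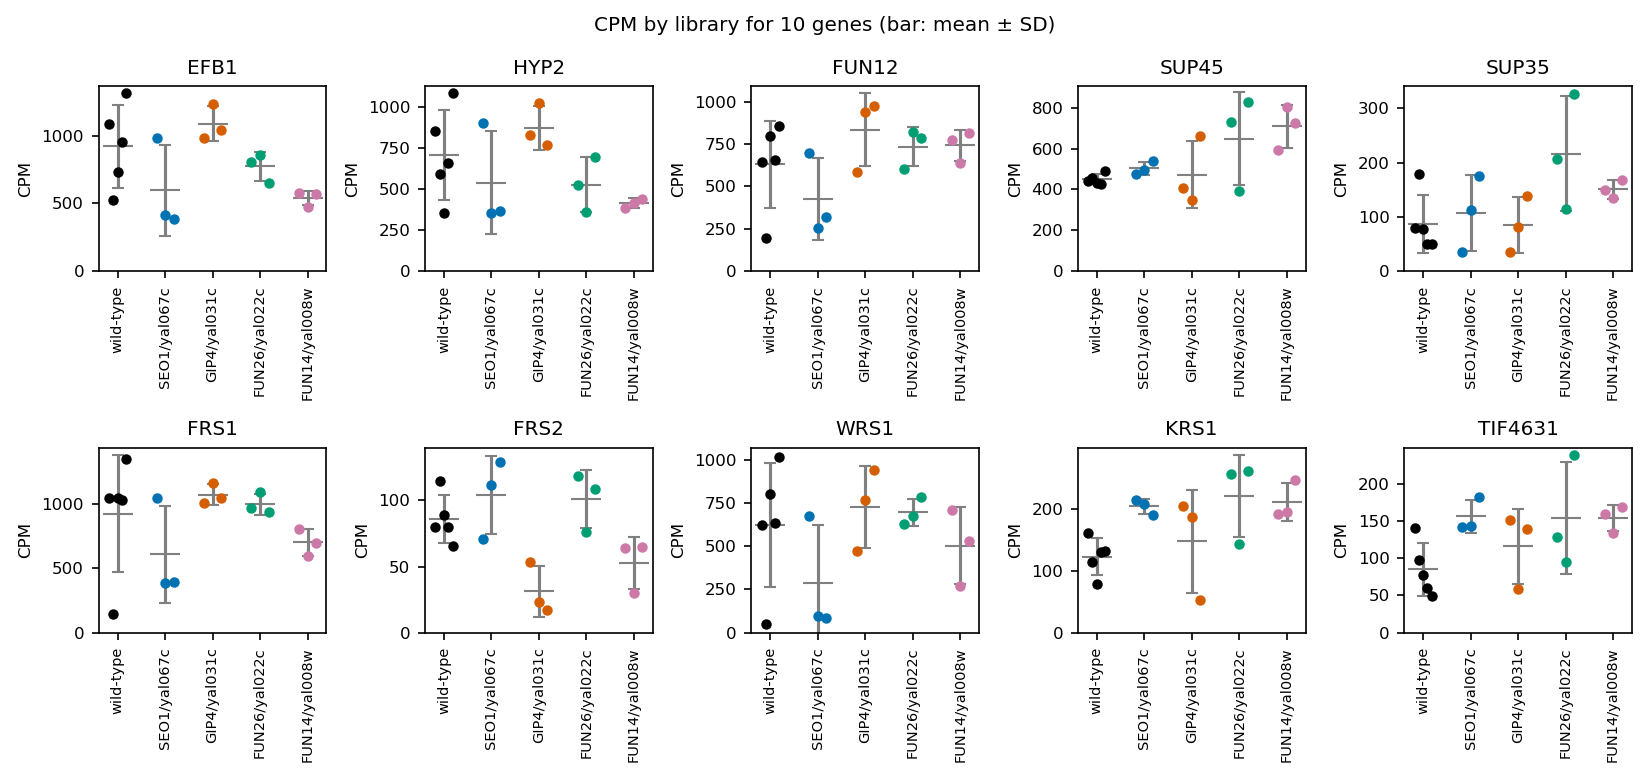
CPM in every library for 10 genes, with points for libraries (wild-type n = 5, each heterozygote n = 3) and bars for the mean ± SD. The FUN14 libraries sit close together for EFB1 and HYP2, and in the SEO1 heterozygote EFB1, HYP2, FUN12, FRS1 and WRS1 show 1 high and 2 low libraries.

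Each strain was then compared with wild-type, and all 4 comparisons share the same 5 wild-type samples. In the SEO1 heterozygote edgeR called 0 of 39 genes (0.14% of all tested ORFs). Its unadjusted p picked 2, TIF4631 and THS1 (YIL078W; 3.92% of all), and DESeq2 called 0 after adjustment (0.245% of all) and 1 before it, EFB1 (3.78% of all). THS1, the threonine enzyme, stood at 140.4, 212, 167, 129 and 229.8 CPM in wild-type and 522, 272 and 198 CPM in replicates 1 to 3 of the strain. Replicates 1 and 2 were above wild-type and replicate 3 within it, for a log2 fold change of 0.92 ± 0.42 (SE) and an edgeR adjusted p of 0.994. TIF4631 stood at 142, 144 and 182 CPM in the strain, all above the highest wild-type sample of 140.4 CPM, with a log2 fold change of 0.86 ± 0.41 (SE) and the same adjusted p. EFB1 stood at 984, 416 and 387 CPM, where replicate 1 lay within wild-type and replicates 2 and 3 below it, with a log2 fold change of -0.63 ± 0.31 (SE) and an edgeR adjusted p of 0.994. That count of 0 depends on replicate 1: without it edgeR called 2 of the genes, EFB1 and WRS1, among 114 of 3090 ORFs, and the log2 fold change of EFB1 was -1.18 with an adjusted p of 0.0397. Without that library THS1 stood at 0.44, and without replicate 3 EFB1 stood at -0.39.

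In the GIP4 heterozygote edgeR called 0 of 39 against wild-type (0.28% of all) and its unadjusted p picked 1, FRS2 (4.83% of all). DESeq2 called 0 after adjustment (0.35% of all) and 0 before it (4.2% of all). FRS2, the other kind of subunit of the phenylalanine enzyme, stood at 80.2, 114, 88.9, 79.6 and 65.7 CPM in wild-type and 53.3, 23.2 and 17.4 CPM in the strain, so the groups did not overlap. These are 6, 2 and 1 counts, the log2 fold change was -1.30 ± 0.49 (SE; 95% interval -2.33 to -0.27), and the edgeR adjusted p was 0.827. FRS2 met the count filter only through libraries of other groups, so its low values in this strain may follow partly from that filter. TYS1 (YGR185C), the tyrosine enzyme, stood at 481, 474, 278, 239 and 476 CPM in wild-type and 1065, 476 and 331 in the strain, where only replicate 1 was clearly above, with a log2 fold change of 0.72 ± 0.38 (SE). CAM1 stood at 221, 343, 267, 179 and 131 CPM in wild-type and 133, 186 and 104 in the strain, overlapping, with a log2 fold change of -0.67 ± 0.41 (SE). The edgeR adjusted p was 0.942 for TYS1 and 0.942 for CAM1. Without replicate 1 of the strain, TYS1 stood at 0.06 and FRS2 at -1.99.

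In the FUN26 heterozygote edgeR called 0 of 39 (0.21% of all), with 2 at an unadjusted p under 0.05, KRS1 and SUP35 (4.34% of all). DESeq2 called 0 after adjustment (0.21% of all) and 1 before it, SUP35 (3.64% of all). SUP35 stood at 207, 115 and 326 CPM there, with 2 of 3 libraries above all of wild-type, and a log2 fold change of 1.27 ± 0.51 (SE). KRS1 stood at 256, 143 and 261 CPM, with replicate 2 inside the wild-type range and the others above it. SUP45 stood at 729, 391 and 826 CPM, with replicate 2 below the wild-type range and the others above it. Their log2 fold changes were 0.81 ± 0.38 (SE; 95% interval 0.02 to 1.60) for KRS1 and 0.51 ± 0.26 (SE; 95% interval -0.04 to 1.05) for SUP45. All 3 had an edgeR adjusted p of 0.98. Replicate 3 of this strain, the shallowest library, was the highest of the 17 samples for each of these 3 genes. The SUP45 estimate was 0.32 without it and 0.78 without replicate 2.

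In the FUN14 heterozygote edgeR called 0 of 39 (0.315% of all, or 9 of 2856 ORFs), and 3 had an unadjusted p under 0.05, EFB1, HYP2 and SUP45 (7.69%, against 16.7% of all tested ORFs). DESeq2 called 0 after adjustment (1.68% of all) and picked the same 3 genes before it (16.1% of all). SUP45 stood at 595, 805 and 725 CPM, all above the highest wild-type sample of 492 CPM. Its log2 fold change was 0.65 ± 0.26 (SE; 95% interval 0.11 to 1.19), with an edgeR adjusted p of 0.224. HYP2 stood at 382, 417 and 440.0 CPM, below 4 of the 5 wild-type samples and above the fifth, with a log2 fold change of -0.77 ± 0.36 (SE) and an edgeR adjusted p of 0.29. EFB1 stood at 573, 477 and 569 CPM, also at the low end of wild-type, with a log2 fold change of -0.77 ± 0.31 (SE) and an edgeR adjusted p of 0.233. Single libraries moved the count over all ORFs: it was 175 of 2804 without wild-type replicate 3 and 114 of 3090 without SEO1 replicate 1, with 0 of the genes described here among them in either case.

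The class medians of each strain against wild-type can be set beside the spread of a class median between libraries of 1 group, an SD of 0.19 for synthetases, 0.25 for elongation, 0.20 for initiation and 0.43 for termination. For synthetases they were 0.34, 0.12, 0.24 and 0.31 in the strains heterozygous at SEO1, GIP4, FUN26 and FUN14. For elongation factors they were -0.14, 0.12, -0.09 and -0.19. For initiation genes they were 0.20, -0.15, 0.12 and 0.23. The 2 release factors had 0.27, -0.02, 0.89 and 0.73, where all tested ORFs had 0.01, 0.03, -0.05 and -0.03.

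The strains were also compared with one another, without wild-type. By the F test over the 4 strains edgeR called 0 of 39 genes and 0% of all tested ORFs, with 2 genes, EFB1 and FRS2, at an unadjusted p under 0.05 (10% of all). DESeq2's likelihood ratio test called 0 of 39 (0.07% of all), with EFB1 and HYP2 before adjustment (10.6% of all). The 5 genes with the smallest p were FRS2, EFB1, HYP2, FUN12 and CRS1. FRS2 stood at 71.1, 112 and 129 CPM in the SEO1 heterozygote, 53.3, 23.2 and 17.4 in the GIP4 heterozygote, 118, 76.4 and 109 in the FUN26 heterozygote and 63.7, 29.8 and 64.7 in the FUN14 heterozygote (edgeR F test adjusted p 0.463). The 3 GIP4 libraries lay below all SEO1 and FUN26 ones and overlapped the FUN14 ones. FRS2 met the count filter through wild-type, SEO1 and FUN26 libraries. Its differences among strains, here and in the comparisons below, may follow partly from that filter. EFB1 stood at 985, 1232 and 1044 CPM in the GIP4 heterozygote and 808, 859 and 652 in the FUN26 heterozygote, beside the SEO1 and FUN14 values above (F test adjusted p 0.463 by edgeR). HYP2 stood at 901, 352 and 365 CPM in the SEO1, 826, 1022 and 766 in the GIP4 and 522, 363 and 696 in the FUN26 heterozygote (F test adjusted p 0.527 by edgeR). For both genes the GIP4 libraries lay above all FUN26 and FUN14 ones, and SEO1 replicate 1 lay apart from replicates 2 and 3. On the first principal component the GIP4 libraries, at -32.3, -25.2 and -3.69, and SEO1 replicate 1, at -24.0, had negative scores. The FUN14 libraries and SEO1 replicates 2 and 3 had positive scores, and the FUN26 libraries had scores of either sign. The part of this axis in the values of EFB1 and HYP2 was not tested.

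CRS1 stood at 747, 1183 and 881 CPM in the SEO1 heterozygote, 746, 627 and 696 in the GIP4 heterozygote, 867, 849.6 and 609 in the FUN26 heterozygote and 934, 1118 and 1022 in the FUN14 heterozygote (F test adjusted p 0.616 by edgeR). The FUN14 libraries were above all GIP4 and FUN26 ones. Without SEO1 replicate 1, the F test called 2 of the genes, EFB1 and WRS1, among 217 of 3090 ORFs.

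Against the mean of the other 3 strains, the GIP4 heterozygote had 0 of 39 genes past adjustment by edgeR and by DESeq2 (0% of all by either). Before adjustment both tools picked the same 4, EFB1, HYP2, TIF1 and FRS2 (10.3%, against 18.3% of all by edgeR and 16.6% by DESeq2). The log2 fold changes were 0.78 ± 0.26 (SE; 95% interval 0.23 to 1.33) for EFB1, 0.84 ± 0.30 (SE; 95% interval 0.22 to 1.47) for HYP2 and -1.26 ± 0.46 (SE; 95% interval -2.22 to -0.29) for FRS2, with edgeR adjusted p of 0.2, 0.205 and 0.205. TIF1, at 1 to 4 counts in the strain, had a log2 fold change of -1.48 ± 0.70 (SE). Like FRS2, TIF1 met the count filter only through libraries outside this strain, so the low values of both may follow partly from the filter. Without SEO1 replicate 1, EFB1 and HYP2 were called, at log2 fold changes of 0.94 and 1.00 and adjusted p of 0.00756 and 0.0140, among 389 of 3090 ORFs. Without GIP4 replicate 1, FRS2 stood at -1.96.

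The SEO1 heterozygote had 0 of 39 past adjustment against the other 3 strains by both tools (0% of all by either). Before adjustment edgeR picked FUN12 and FRS2 (2.07% of all) and DESeq2 FUN12 and WRS1 (1.47% of all). FUN12 stood at 699, 256 and 319 CPM there, with a log2 fold change of -0.85 ± 0.35 (SE). WRS1, the tryptophan enzyme, stood at 676, 95.9 and 83.6 CPM in the SEO1 heterozygote and at 622, 49, 799.9, 637 and 1018 CPM in wild-type. Replicates 2 and 3 of the strain and wild-type replicate 3 held the 3 lowest values, and the 9 libraries of the other strains ran from 268 to 939.5 CPM. Its log2 fold change was -1.16 ± 0.60 (SE; 95% interval -2.40 to 0.09), and all 3 genes had an edgeR adjusted p of 0.998. Without SEO1 replicate 1 the estimates were -2.82 for WRS1 and -1.39 for FUN12, each with an edgeR adjusted p of 0.130, and without replicate 3 that of WRS1 was -0.71.

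The FUN26 heterozygote had 0 of 39 against the other 3 strains after and before adjustment by both tools (0% of all after it, and 1.37% of all by edgeR and 0.875% by DESeq2 before it). Its smallest p belonged to SUP35, with a log2 fold change of 0.90 ± 0.45 (SE), FRS2, with 0.78 ± 0.39, and MES1 (YGR264C), with -0.53 ± 0.30. MES1, the methionine enzyme, stood at 177, 153 and 87 CPM in the FUN26 heterozygote, 189.7, 208 and 273 in the SEO1, 204, 128 and 174 in the GIP4 and 202, 238 and 272 in the FUN14 heterozygote, overlapping the GIP4 libraries and below all SEO1 and FUN14 ones. Without FUN26 replicate 3 the estimates were 0.53 for SUP35 and -0.34 for MES1. The FUN14 heterozygote likewise had 0 genes of 39 after and before adjustment by edgeR (0% and 13.4% of all). DESeq2 gave an adjusted p to 25 of the genes and called 0 (0.831% of the 1804 ORFs it adjusted) and 0 before adjustment (13.3% of all). THS1 stood at 138, 89.4 and 220.0 CPM there, with a log2 fold change of -0.82 ± 0.42 (SE), EFB1 had a log2 fold change of -0.55 ± 0.29 (SE) and CRS1 0.36 ± 0.20. The smallest edgeR adjusted p among them was 0.402, for THS1, and without SEO1 replicate 1 the estimate of EFB1 was -0.35.

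EFB1 and FUN12 lie on chromosome I, the chromosome of the 4 heterozygous genes. In the deposited coordinates, whose build is not given in the sources used here, EFB1 on chromosome I runs from 142176 to 143162 and begins 4664 bases beyond YAL008W (FUN14). In the FUN14 heterozygote EFB1 averaged 539.9 ± 54.6 CPM (SD, n = 3) against 921 ± 306 in wild-type (n = 5), a difference of -0.68 in mean log2 CPM with an exact two-sided permutation p of 0.0893. The 56 splits allow a p of 0.0179 at the least. Against the 9 libraries of the other strains, at 819 ± 286 CPM, the difference was -0.50 (exact two-sided permutation p 0.177, with 0.00455 the smallest that 220 splits allow). Of the 3 FUN14 libraries, 2 lay inside the wild-type range and 1 below it, and all 3 lay inside the range of the other strains. EFB1 was lower still in 2 SEO1 libraries, whose heterozygous gene lies between 7236 and 9017, near the end of the chromosome.

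FUN12 runs from 76428 to 79436, 5314 bases from YAL031C (GIP4). It stood at 642, 196, 799.9, 657 and 854 CPM in wild-type and 586, 941 and 974 CPM in the GIP4 heterozygote, with 601, 821 and 783 in the FUN26 and 775, 641 and 815 in the FUN14 heterozygote. The GIP4 difference from wild-type was 0.50 in mean log2 CPM (exact two-sided permutation p 0.411) and from the other strains 0.44 (p 0.232 by the same exact test). Without wild-type replicate 3, by far the lowest wild-type sample, the difference from wild-type was 0.14 (exact two-sided permutation p 0.514). Replicates 2 and 3 of the GIP4 heterozygote were the 2 highest of the 17 samples, replicate 1 was not, and the groups overlapped.

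Libraries of 1 group differed widely. The median SD of log2 CPM within groups was 0.48 over the 39 tested genes and 0.51 over all tested ORFs. The ratio of the highest to the lowest of the 17 samples ran from 1.87 for YDR341C, the arginine enzyme, to 20.8 for WRS1, with a median of 4.6. Within wild-type, replicate 3 was the lowest sample for 8 of the 39 genes (ALA1, DPS1, FRS1, WRS1, EFB1, YEF3, TIF1 and FUN12) and the highest for 16. Of the other wild-type samples, replicate 5 was lowest for 15 genes and highest for 1, and replicate 6 lowest for 12 and highest for 11. Replicates 1 and 2, as 1 sample, were lowest for 2 and highest for 8, and replicate 4 lowest for 2 and highest for 3. The shares over all tested ORFs were not counted, so these numbers describe the libraries and show nothing particular to the genes. The median GC content of the counted window was 44.25% for the 8 genes lowest and 39% for the 16 highest in replicate 3. The ranges overlapped, at 40% to 46.5% for the lowest and 35% to 46.5% for the highest. Over the 39 genes Spearman's rho between GC content and the difference of replicate 3 from the other wild-type samples was -0.34, and over 2603 tested ORFs with a known GC content it was -0.32, genes of 1 library set that are not independent replicates. The trend was not confined to that library. Over the same 2603 ORFs, rho was also taken between GC content and each library's deviation from the ORF's mean log2 CPM. It ran from 0.094 to 0.34 in the GIP4 heterozygote and from -0.35 to -0.13 in the FUN14 heterozygote, without overlap. In the SEO1 heterozygote it ran from -0.36 to 0.14, in the FUN26 heterozygote from -0.26 to 0.23 and in wild-type from -0.26 to 0.35. With a GC correction, added after the data were seen, edgeR called 0 of the 39 in each of the 10 comparisons, as it did without one. That correction took the elongation median of the GIP4 heterozygote against the other strains from 0.16 to a value below 0. A count of 0 in both fits does not measure the part of GC content in the group comparisons, which was not tested further.

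**Figure D4:**
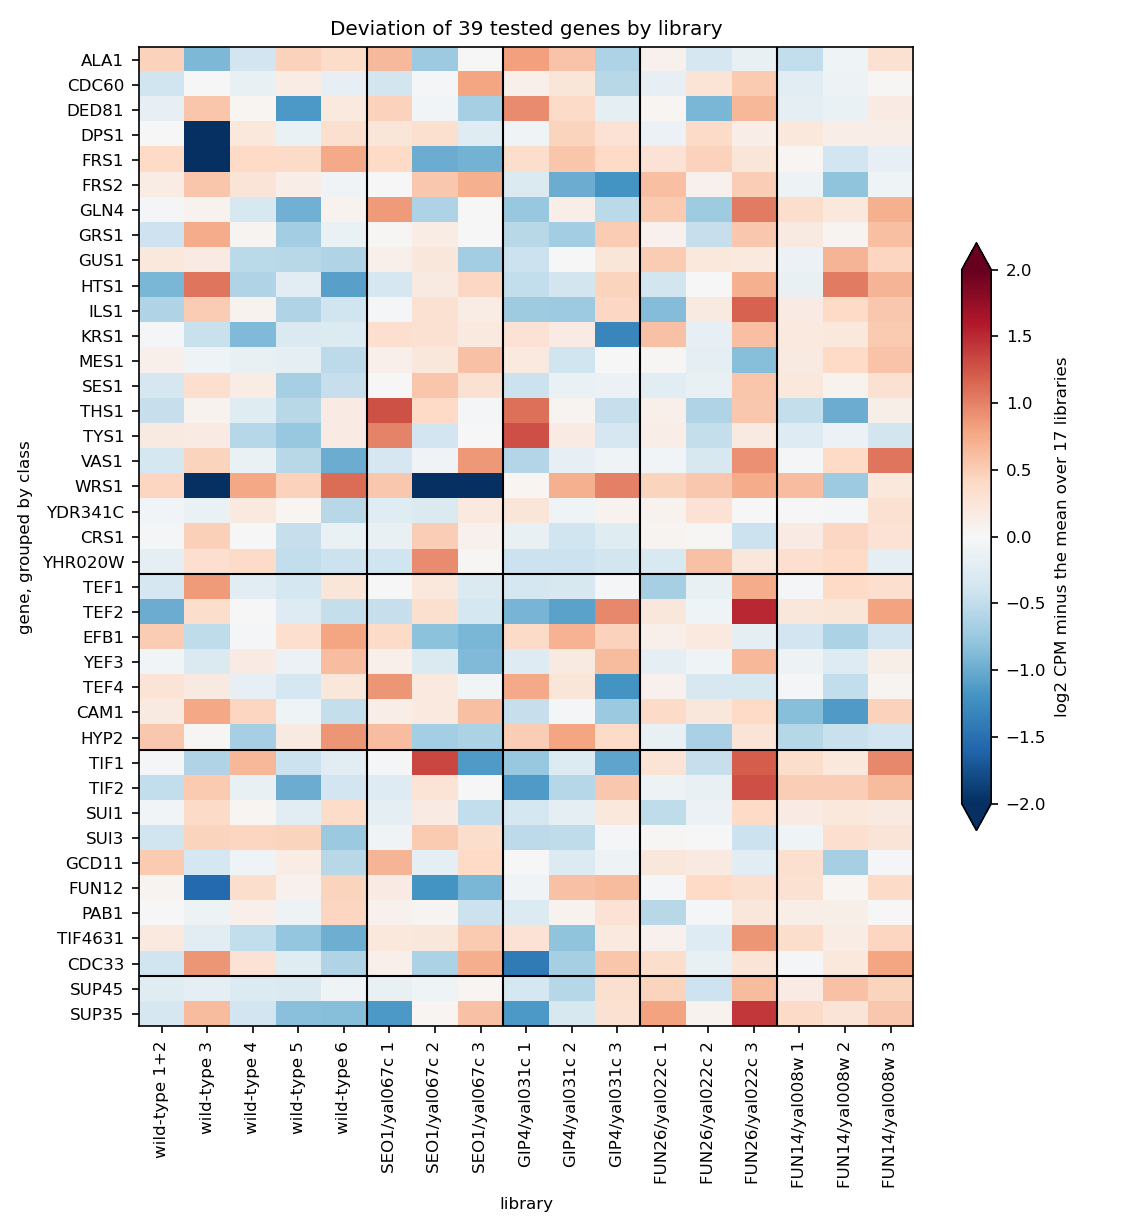
Deviation of log2 CPM from each gene's mean over 17 samples, for the 39 tested genes (rows, grouped by class) and the samples (columns, grouped by strain); colours saturate at 2 on the log2 scale. Wild-type 3 and SEO1 replicates 2 and 3 share low FRS1, WRS1 and FUN12.

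FRS1 and FRS2 form 1 enzyme, and their proteins join in equal numbers, yet their counts did not keep a fixed ratio. FRS2 had only 1 to 17 counts per library, so every ratio below is coarse. FRS1 stood at 1043, 384 and 395 CPM in the SEO1, 1003, 1162 and 1044 in the GIP4, 966, 1088 and 935 in the FUN26 and 807, 596 and 699 in the FUN14 heterozygote. The count of FRS1 over that of FRS2 was 11.8 to 20.5 in 5 wild-type libraries, with replicates 1 and 2 taken singly, and 1.29 in wild-type replicate 3. It was 14.7, 3.43 and 3.06 in the SEO1 heterozygote, and 18.8, 50 and 59.5 in the GIP4 heterozygote, the last 2 resting on 2 and 1 FRS2 counts. The ratio was 8.17, 15.2 and 8.6 in the FUN26 and 12.8, 20 and 10.8 in the FUN14 heterozygote. The FRS1 window has a GC content of 46.5% and the FRS2 window one of 41.5%.

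The promoters of these genes were searched for 2 known motifs, from 250 bases before to 50 bases after the start of the coding sequence in R64, on both strands. Gcn4 is the activator that amino acid shortage induces. Its site TGACTCA occurred in 3 of the 21 synthetases, GLN4, YDR341C and YHR020W (the proline enzyme), and in none of the other 21 genes, beside 2.73% of 6007 coding genes. The match in GLN4 lies past the start codon, within the coding sequence, and the other two lie upstream. The log2 fold changes of these 3 against wild-type, over the mean of the strains, were 0.51 ± 0.45 (SE; 95% interval -0.43 to 1.46), 0.13 ± 0.18 (SE; 95% interval -0.25 to 0.51) and 0.12 ± 0.29 (SE; 95% interval -0.48 to 0.72). The core ACACCC of the Rap1 site occurred in GUS1 and KRS1 alone of the 42, beside 5.78% of coding genes, and no promoter of the 42 held both motifs. Sites farther upstream, or with other letters, were not searched for, so a gene without a match may still have a site.

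Other genes of translation were set beside these. Of 30 further genes (the eIF3 and eIF2B subunits, other initiation genes, the Gcn kinase pathway, recycling factors and the cofactor ARC1), 25 were tested, with a smallest edgeR adjusted p of 0.666 between the heterozygotes and wild-type and a median log2 fold change of 0.04. Before adjustment 1 was higher and 1 lower. NEW1, a relative of eEF3, stood at 92.5 ± 27.6 CPM in wild-type, 247 ± 199 in the SEO1, 239.6 ± 142 in the GIP4, 155 ± 31.6 in the FUN26 and 112 ± 19.3 in the FUN14 heterozygote, a log2 fold change of 0.93 ± 0.37 (SE). ANB1, the copy of eIF5A known from cells short of oxygen, stood at 145 ± 166 CPM in wild-type, 28.8 ± 37.5 in the SEO1, 191 ± 197 in the GIP4, 26.0 ± 24.8 in the FUN26 and 33.4 ± 17.7 in the FUN14 heterozygote, a log2 fold change of -1.59 ± 0.63 (SE). Both had that adjusted p, and the SD of ANB1 exceeded its mean in 3 of the 5 groups. None of 14 mitochondrial synthetase genes passed the count filter. Over the 130 tested genes of cytosolic ribosomal proteins the median was 0.03 on the log2 scale, with 1 gene, lower in the heterozygotes, at an unadjusted p under 0.05 by edgeR.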

How the data were processed

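The authors deposited 1 table of estimated counts per ORF for 18 libraries, and all 18 columns were used. The name of the table says that the last 200 bases of each ORF were counted. Of its values 93% are whole and 6.98% are multiples of 0.5, and none exceeds 201. They behave like numbers of distinct read positions, so high values are compressed. Bowtie 0.12.5 is named in the submitters' processing notes; not given in the sources used here are the build, whether strand was used and how repeated matches were handled.

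The 42 genes were found by systematic name, all 42 with a match in RefSeq R64. The genes and the gene lists were chosen with earlier results of these data known. Wild-type replicates 1 and 2 were averaged after a chi-square comparison that models each window as 202 positions. Counts were rounded and fitted for all ORFs with edgeR 4.0.16 in R 4.3.3, with TMM factors, filterByExpr at a minimum count of 10 and a mean per group over 17 samples. Adjusted p-values are Benjamini-Hochberg values over the 2856 tested ORFs, called under 0.05. Intervals are at the 95% level. CPM use library sizes scaled by TMM, and log2 CPM used a prior count of 2. DESeq2 1.42.0 was the second test. The steps were tested on simulated data.

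Values by library, or for the 12 heterozygote libraries together their lowest, median and highest, are given, by rule, for the 3 near-identical pairs, EFB1 and FUN12, the 3 smallest p per class over the mean of the strains, the 3 smallest p of each strain comparison, the 5 smallest of the F test, and the highest and lowest gene of each class in wild-type. TEF4, CAM1 and the FRS1 to FRS2 ratio were singled out after their values were seen.

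Alternatives changed the scaling, the filter, the test, the ceiling, the wild-type libraries used, a replicate block and the paired genes, and left out each library in turn. A GC correction and the removal of wild-type replicates 1 and 2 together were added after the data were seen.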

Additional observations from a re-analysis of the deposited data

Results flagged for a closer look

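In wild-type, 4 of the 42 genes had 1 library far from the other 4 samples, by a gap over 0.71 of the whole range of the group of 5, and it was replicate 3 each time. For independent, normally distributed values such a gap arises in about 1 of 20 groups. These genes share their libraries, and the share over all ORFs was not counted, so the number of genes flagged is a description only. FRS1 stood at 147 CPM there, against 1025 to 1346 in the other samples. HTS1, the histidine enzyme, stood at 229 CPM against 32.8 to 79.6. SUI2 stood at 98.0 CPM against 16.4 to 33.3, and SUP35 at 179.7 CPM against 49.2 to 80.2. The heterozygotes have 3 libraries each and were not examined this way.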

How the results depend on the processing

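edgeR's count of 0 called genes held in all 10 comparisons under each alternative except the removal of SEO1 replicate 1. Over the removals of 1 library the count ran from 0 to 2 for the SEO1 heterozygote against wild-type, for the GIP4 heterozygote against the other strains, and for the F test. Class medians moved more. With wild-type replicates 1 to 3 alone, the initiation median was -0.017 for the SEO1 and -0.35 for the GIP4 heterozygote, and the synthetase median of the GIP4 heterozygote -0.079. The elongation median of the GIP4 heterozygote against the other strains was -0.20 with the GC correction and -0.14 to 0.25 over removals of 1 library. Such removals gave -0.24 to 0.19 for elongation in the SEO1 heterozygote against wild-type and -0.39 to 0.090 against the other strains. For initiation they gave -0.36 to -0.051 in the GIP4 heterozygote against wild-type, -0.49 to -0.19 against the other strains, and -0.18 to 0.25 in the SEO1 heterozygote against the other strains. The cause was not tested. GUS1 over the mean of the strains had -0.072 with wild-type replicates 1 to 3 alone and -0.10 with a replicate block. The block otherwise left 0 genes called. Of same-numbered pairs, 20 of 30 had a correlation over 0.1 (range -0.49 to 0.52), against 25 of 96 pairs with different numbers. Of 15 libraries, 7 correlated best with their own number. Since not every same-numbered pair passed 0.1, the replicate numbers were not taken as pairs in the main fit, although such pairs passed it more often. In this check and in the replicate block, wild-type replicates 1 and 2 entered as separate libraries. Without wild-type replicate 3, FRS2 missed the count filter and has no value. With mean counts of at most 20 in 25 of the 42 genes, depth limits what could be detected.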
